A study of Mus musculus with 4 samples.

Results

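Immunoglobulin transcripts were read from 36 of the 41345 probe sets on Affymetrix Mouse Gene ST 2.1 arrays. These are the probe sets of which every annotated symbol is a heavy, kappa or lambda chain segment or Jchain by the pattern of its name. One of the 36 is Ighmbp2, a DNA and RNA helicase gene whose symbol fits the pattern without being an immunoglobulin, and it was kept apart, which leaves 35. The arrays held liver RNA from male mice with a wild type Nrg4 gene (WT) or a knockout of it (KO), 2 pools per genotype. Nrg4 encodes neuregulin 4, a secreted growth factor related to EGF. All mice, the WT controls included, were put on a NASH diet (one that causes fatty liver with inflammation) at 3 months of age and kept on it for 20 weeks, and their livers were collected in the fed state. The sources used here give neither the strain, nor the form of the knockout, nor the number of animals per pool. Each array is a pool, so the spread between 2 values is one between pools and not between animals.

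An antibody is built of 2 kinds of chain, heavy and light. Each chain gene is assembled in developing B cells, when one variable (V) segment is joined to a joining (J) segment, with a diversity segment between them in the heavy chain, and the product is spliced to a constant region. The heavy constant region sets the class, Ighm for IgM and Ighg3 for the IgG3 subclass, and light chains are either kappa or lambda. Plasma cells, the end stage of B cells, secrete antibody in bulk, and those that make IgM or IgA also make the J chain, a small protein that joins antibody units into polymers and allows the polymeric immunoglobulin receptor to carry them into bile. Hepatocytes do not rearrange these loci, so immunoglobulin transcripts in liver RNA are usually attributed to B cells and plasma cells in the tissue or its blood.

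The 35 probe sets carry 24 symbols. By class, 9 probe sets name a heavy constant region alone (7 Ighm and 2 Ighg3), 3 name Ighm together with variable segments, 3 name heavy variable segments, 18 name kappa segments, 1 names the lambda segment Iglv1 and 1 Jchain. The annotation reaches a small part of the loci. Of 12 constant regions in the RefSeq gene table it names 2, of 120 heavy variable segments 4, and of 102 kappa variable segments 15. The kappa and lambda constant regions, IgA and the other IgG subclasses are not analysed here. Segments of one family resemble each other and 5 probe sets carry several symbols, so a probe set may read relatives of the gene it is named for. The sources used here do not say which exon of Ighm each probe set reads.

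Of the 24 symbols, Jchain was the one with a promoter window in the RefSeq promoter table (GRCm38.p6). It is printed because Jchain is not a rearranged segment and its values were higher in KO like those of most chains. The 250 bases before its start lie at chr5:88527898-88528147 on the minus strand and read as follows, with matches to the E-box CANNTG in capitals.
Jchain: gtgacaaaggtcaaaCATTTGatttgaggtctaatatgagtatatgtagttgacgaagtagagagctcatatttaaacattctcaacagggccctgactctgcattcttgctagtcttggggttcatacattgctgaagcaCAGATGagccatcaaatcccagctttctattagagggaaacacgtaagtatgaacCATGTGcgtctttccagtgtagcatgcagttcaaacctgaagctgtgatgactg
The E-box, the site type bound by E proteins such as those that drive B cell development, occurred 3 times, and 66.2% of the 32851 windows of this length hold at least 1. The octamer ATGCAAAT, known from the promoters of variable segments, was not found on either strand and is in 1.6% of windows. The purine-rich letters GAGGAA, a core to which PU.1 binds, were also searched on both strands and not found, and are in 23.3% of windows. These matches describe the letters and are no evidence of binding.

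The deposited values are log2 expression values with an unknown zero point. They run from -1.12 to 11.90 over the table, with array medians between 0.52 and 0.64. The median of all probe set means, 0.54, was used as a mark for dim probe sets, below which differences may be compressed. Nrg4 itself was at 2.54 and 2.30 in the WT pools and at 0.93 in both KO pools. Hepatocyte identity was plain in all 4 pools, with albumin (Alb) between 10.70 and 10.91.

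Of the 35 immunoglobulin probe sets, 27 had a higher mean in the KO livers and 8 a lower one, and the higher ones took in heavy, kappa and J chain transcripts. Of all 41345 probe sets 21515 were higher and 19830 lower. At an unadjusted p under 0.05 by limma, 16 of the 35 were higher in KO and 0 were lower, against 3.71% of all probe sets higher and 2.75% lower. The 16 differences ran from 0.93 to 2.17 on the log2 scale. These 16 are not separate results, since several probe sets share a symbol and may read the same transcripts in the same pools. Both KO pools lay above both WT pools in 21 of the 35, against 19.9% of all probe sets, and below them in 3, against 16.6%. After adjustment over all 41345 probe sets no member passed, and neither did any other probe set (limma, 0%). The smallest adjusted p of a member was 0.443. The median difference of the 35 was 0.50, beside 0.02 over all probe sets.

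**Figure D1:**
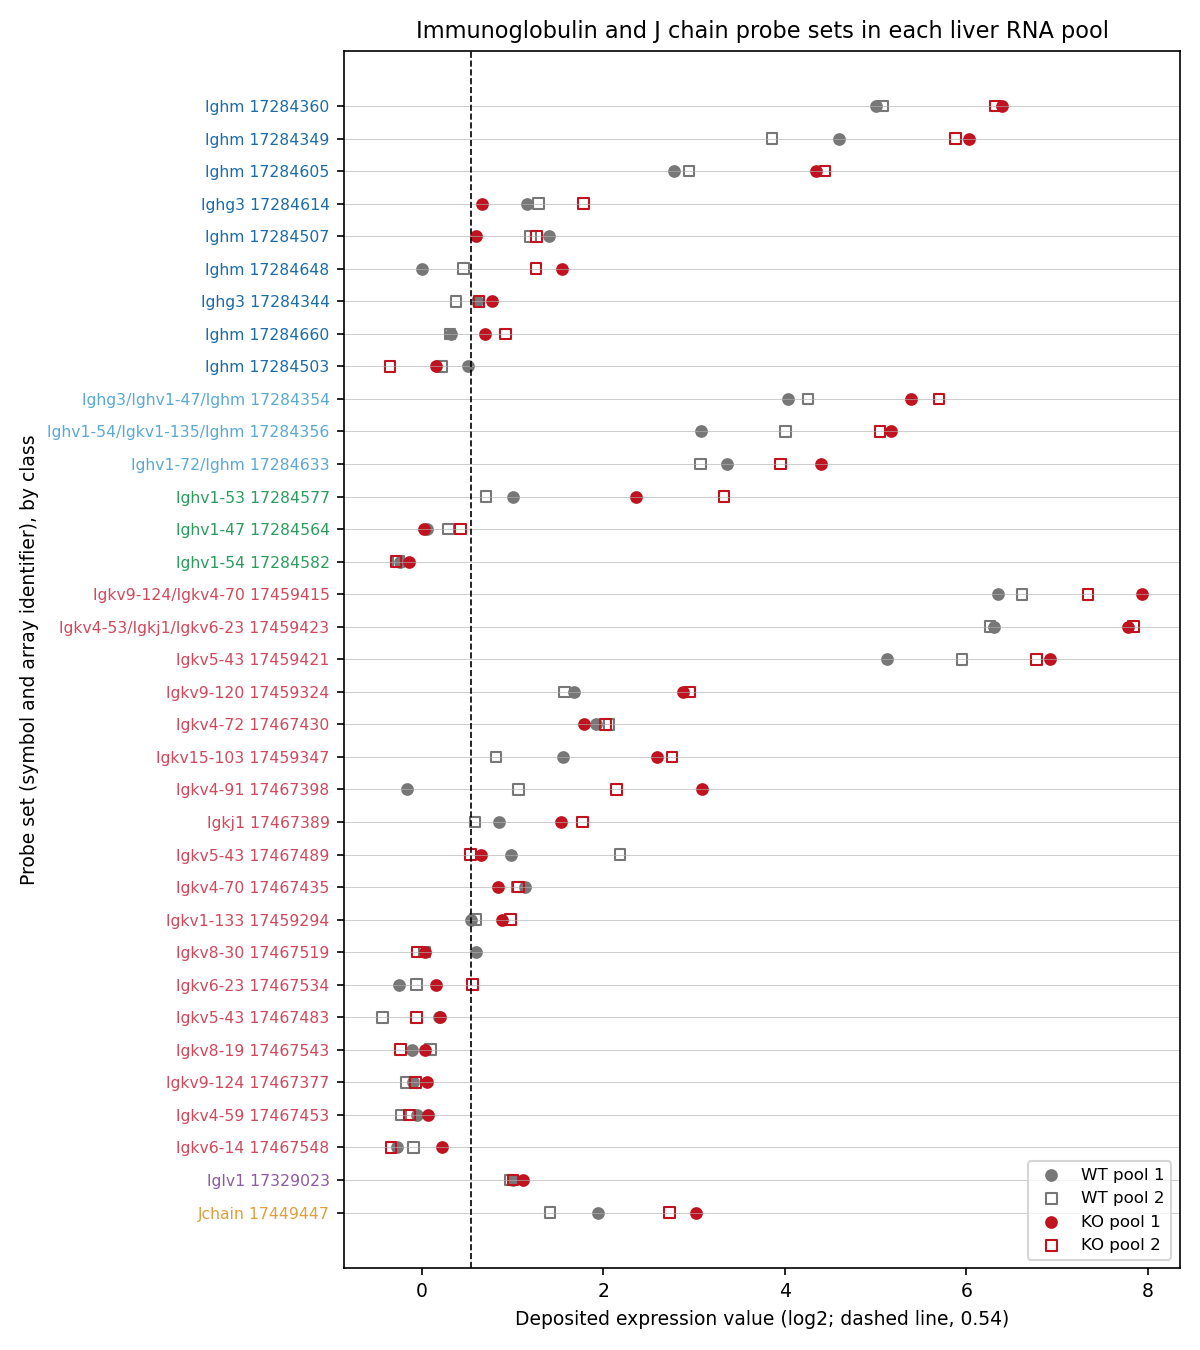
Deposited log2 expression value (horizontal axis) of the 35 immunoglobulin and J chain probe sets in each pool, grey for WT and red for KO, with filled circles for pool 1 and open squares for pool 2. Label colours mark the classes, in order heavy constant, heavy constant with variable symbols, heavy variable, kappa, lambda and J chain, and in 21 probe sets both red points lie to the right of both grey ones.

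The 3 Ighm probe sets with a mean above 1.54 are named for the heavy chain of IgM, the class that B cells make first. Probe set 17284360 was at 5.01 and 5.08 in the WT pools and at 6.40 and 6.32 in the KO pools. The groups lay 1.24 apart at their nearest, many times the gap within either. The difference was 1.32 ± 0.19 (SE; limma, adjusted p = 0.443), or 2.49-fold. Probe set 17284349 was at 4.60 and 3.86 in WT and at 6.03 and 5.88 in KO. Here the WT pools were further apart than the KO pools and still did not reach them. Its difference was 1.72 ± 0.31 (adjusted p = 0.556), or 3.30-fold. Probe set 17284605 was at 2.78 and 2.94 in WT and at 4.35 and 4.45 in KO, a difference of 1.54 ± 0.20 (adjusted p = 0.443), or 2.90-fold. In all 3 the lower KO pool stood above the higher WT pool by more than 1 on the log2 scale.

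The other 4 Ighm probe sets were near the dim end and did not follow one direction. Probe set 17284648 was at 0.00 and 0.46 in WT and at 1.54 and 1.26 in KO, a difference of 1.17 ± 0.26 that starts below the 0.54 mark. Probe set 17284660 differed by 0.50 ± 0.20. On the other side, 17284507 differed by -0.36 ± 0.29 with overlapping pools, and 17284503, the dim one of the 4 by its mean of 0.14, by -0.47 ± 0.27. The probe sets that share the symbol Ighm therefore disagree, with differences from -0.47 to 1.72.

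Neither of the Ighg3 probe sets, which name the constant region of IgG3, separated the genotypes clearly. The dimmer, 17284344, was at 0.61 and 0.38 in WT and at 0.78 and 0.63 in KO, so that the groups were 0.02 apart. The other, 17284614, was at 1.17 and 1.29 in WT and at 0.66 and 1.79 in KO. Its WT pools lay between its KO pools, and the difference was -0.003 ± 0.41 (SE), a sign that turns when WT pool 2 or KO pool 1 is left out. Over the 9 heavy constant probe sets, 6 were higher and 3 lower, and the median difference was 0.50. At an unadjusted p under 0.05 by limma 4 were higher, against 3.71% of all probe sets.

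All 3 probe sets that name Ighm together with variable segments were higher in KO. The one shared by Ighg3, Ighv1-47 and Ighm was at 4.04 and 4.26 in WT and at 5.39 and 5.70 in KO. The difference was 1.40 ± 0.22 (SE; limma, adjusted p = 0.493). The one shared by Ighv1-54, the kappa segment Igkv1-135 and Ighm was at 3.08 and 4.01 in WT and at 5.17 and 5.05 in KO. Its WT pools were 0.93 apart, against a difference between genotypes of 1.57 ± 0.36 (adjusted p = 0.605). The one shared by Ighv1-72 and Ighm was at 3.37 and 3.08 in WT and at 4.40 and 3.95 in KO, a difference of 0.96 ± 0.26 (adjusted p = 0.678). In these 3 the genotypes did not overlap.

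Among heavy variable segments, which contribute most of the antigen-binding site of the heavy chain, Ighv1-53 stood out. It was at 1.01 and 0.71 in WT and at 2.36 and 3.33 in KO. The KO pools differed from each other by 0.98, less than the distance of either from WT. The difference was 1.99 ± 0.38 (SE; limma, adjusted p = 0.575), or 1.50 without KO pool 2 and 2.48 without KO pool 1. Ighv1-47 and Ighv1-54, read by probe sets of their own, were dim, with means of 0.20 and -0.23, and differed by 0.05 ± 0.24 and 0.04 ± 0.19. Both of their symbols also occur on the brighter probe sets shared with Ighm, which differed by 1.40 and 1.57. The single-symbol and shared probe sets of these segments therefore gave unlike values.

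The kappa light chain gave 3 probe sets with means above 6, and all were higher in KO. The one shared by Igkv4-53, the joining segment Igkj1 and Igkv6-23 was at 6.31 and 6.26 in WT and at 7.78 and 7.84 in KO. Its pools were 0.05 apart in WT and 0.06 in KO, and the difference was 1.52 ± 0.19 (SE; limma, adjusted p = 0.443), or 2.87-fold. The one shared by Igkv9-124 and Igkv4-70 was at 6.35 and 6.61 in WT and at 7.93 and 7.34 in KO, a difference of 1.16 ± 0.28 (adjusted p = 0.635). Igkv5-43, by probe set 17459421, was at 5.13 and 5.96 in WT and at 6.93 and 6.77 in KO. That is a difference of 1.31 ± 0.33 (adjusted p = 0.657), or 2.48-fold, with the WT pools 0.83 apart.

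Among less bright kappa segments, Igkv9-120 was at 1.68 and 1.57 in WT and at 2.88 and 2.96 in KO, a difference of 1.29 ± 0.19 (SE; limma, adjusted p = 0.443). Igkv15-103 was at 1.56 and 0.82 in WT and at 2.59 and 2.76 in KO. Its difference was 1.48 ± 0.31 (adjusted p = 0.582). Igkv4-91 had the largest difference of all 35, 2.17 ± 0.54 (adjusted p = 0.648). It was also the most uneven of these, at -0.16 and 1.07 in WT and at 3.09 and 2.15 in KO, and leaving out WT pool 1 gave a difference of 1.55, leaving out WT pool 2 one of 2.78. The joining segment Igkj1 was at 0.86 and 0.59 in WT and at 1.54 and 1.77 in KO, a difference of 0.93 ± 0.22 (adjusted p = 0.621).

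Other kappa probe sets did not differ in this way. Igkv4-72, with a mean of 1.95, was at 1.93 and 2.07 in WT and at 1.78 and 2.03 in KO. Its difference was -0.09 ± 0.21, and it was the one member with a mean of at least 1.54 that was not higher in KO. Igkv4-70 on its own probe set differed by -0.14 ± 0.20 and Igkv1-133 by 0.36 ± 0.19. A further Igkv5-43 probe set, 17467489, ran the other way, at 0.99 and 2.19 in WT and at 0.66 and 0.54 in KO. Its difference was -0.99 ± 0.44, which came to -1.59 on WT pool 2 alone against KO and to -0.39 on WT pool 1 alone. Another Igkv5-43 probe set, 17467483, with a mean of -0.02, differed by 0.20 ± 0.29, so the probe sets of that symbol disagree. The remaining 6 kappa probe sets were dim, with differences from -0.32 (Igkv8-30) to 0.51 (Igkv6-23). Of the 18 kappa probe sets 13 were higher and 5 lower, and the median was 0.28. Higher at an unadjusted p under 0.05 by limma were 7, against 3.71% of all probe sets.

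The one lambda probe set did not separate the genotypes. Iglv1, a lambda variable segment, was at 1.01 and 0.97 in WT and at 1.12 and 1.01 in KO. The difference was 0.07 ± 0.19 (SE; limma, adjusted p = 0.961). Whether lambda and kappa chains differ from each other in their response was not tested.

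Jchain was at 1.95 and 1.41 in WT and at 3.02 and 2.73 in KO. The lower KO pool lay 0.78 above the higher WT pool. The difference was 1.19 ± 0.27 (SE; limma, adjusted p = 0.599), or 2.29-fold, inside the range of the heavy and kappa probe sets at an unadjusted p under 0.05. Ighmbp2, the helicase taken in by its name, was at 0.40 and 0.45 in WT and at 0.52 and 0.30 in KO, a difference of -0.01 ± 0.20.

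**Figure D2:**
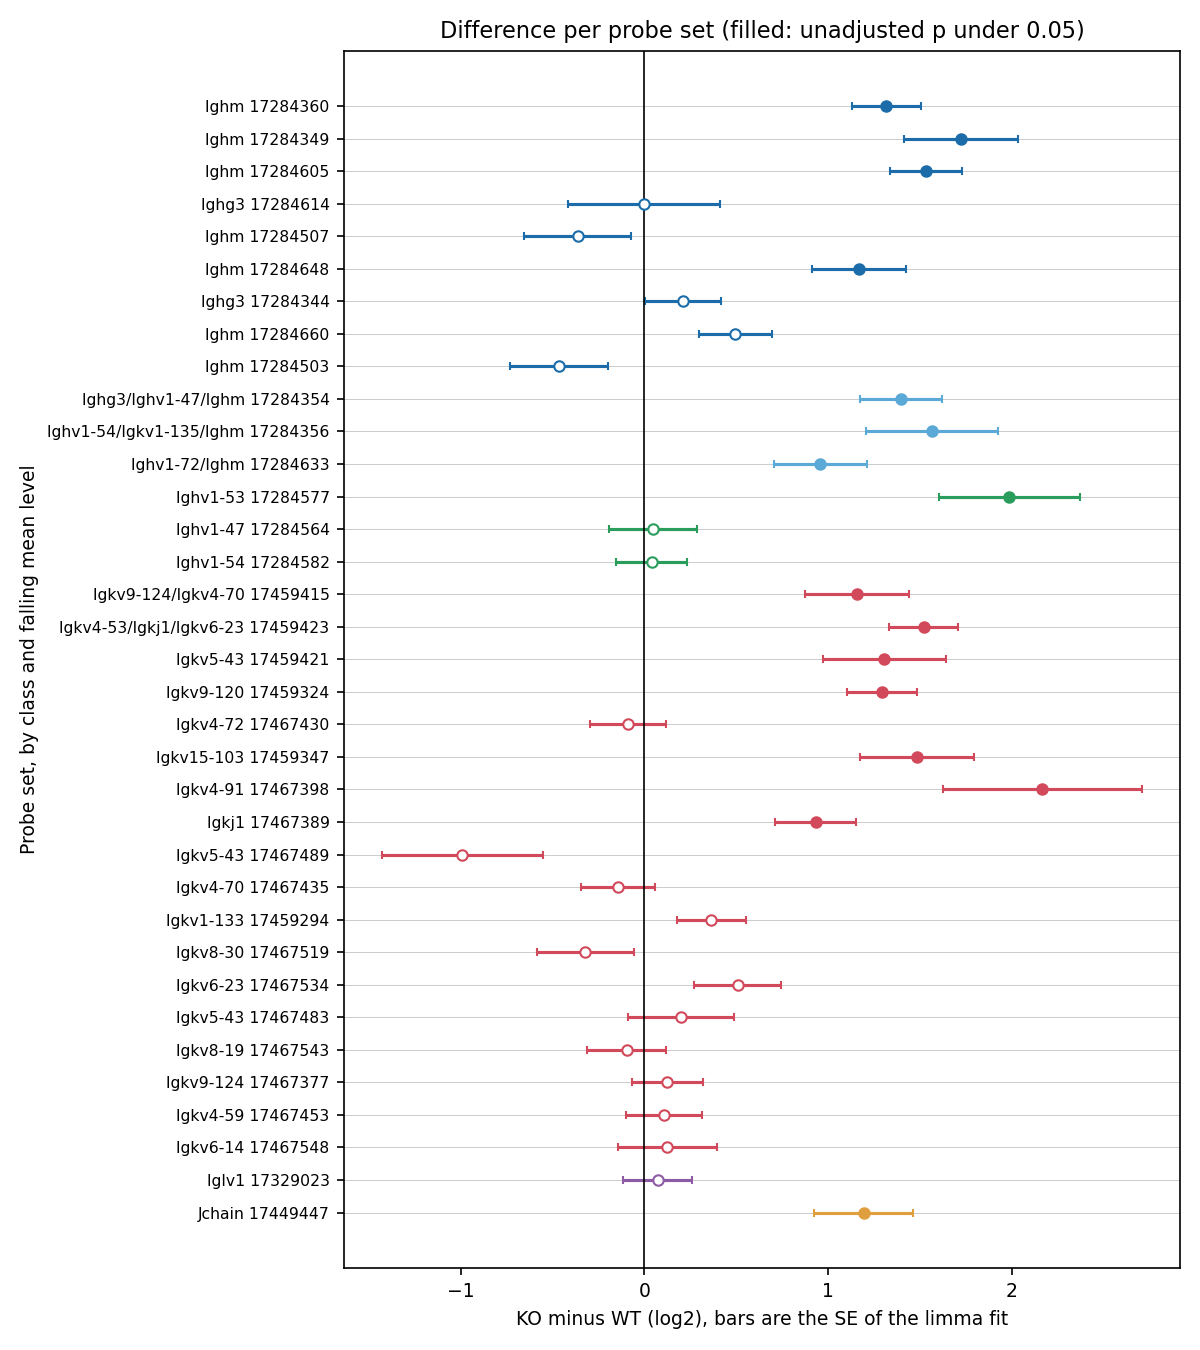
KO minus WT difference on the log2 scale (horizontal axis) for each of the 35 probe sets, by class and falling mean level, with bars for the SE of the limma fit. Filled points are the 16 at an unadjusted p under 0.05, which run from 0.93 to 2.17, and open points are the other 19.

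The differences lay mainly among the brighter probe sets. With a mean of at least 1.54 over the 4 arrays there were 14 members, of which 13 were higher at an unadjusted p under 0.05 and 13 had both KO pools above both WT pools. Over all probe sets at that level the shares were 5.68% and 20.8%. Of the 11 members between 0.54 and 1.54, 3 were higher at that p, and of the 10 dim ones under 0.54, 0 were. The share of all probe sets within either of these bands was not counted, so neither count can be weighed by itself. Taking the 25 members of at least 0.54 together, 16 were higher at that p, against 5.8% of all probe sets at that level, and 19 had both KO pools above, against 20.8%. These counts are a description, since a high KO value lifts the mean: 4 of the 25 had a WT mean under 0.54, and 2 of the 14 a WT mean under 1.54 (Ighv1-53 and Igkv15-103). By the WT mean alone, 13 members reached 1.54 and 11 of them were higher in KO at an unadjusted p under 0.05, the others being Igkv4-72 and Igkv5-43 by probe set 17467489. The share of all probe sets with such a WT mean that were higher was not counted, so this count has no background beside it. At the 0.54 mark the nearest members were Ighm probe set 17284660 inside, with a mean of 0.57, and Ighv1-47 outside, with 0.20.

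**Figure D3:**
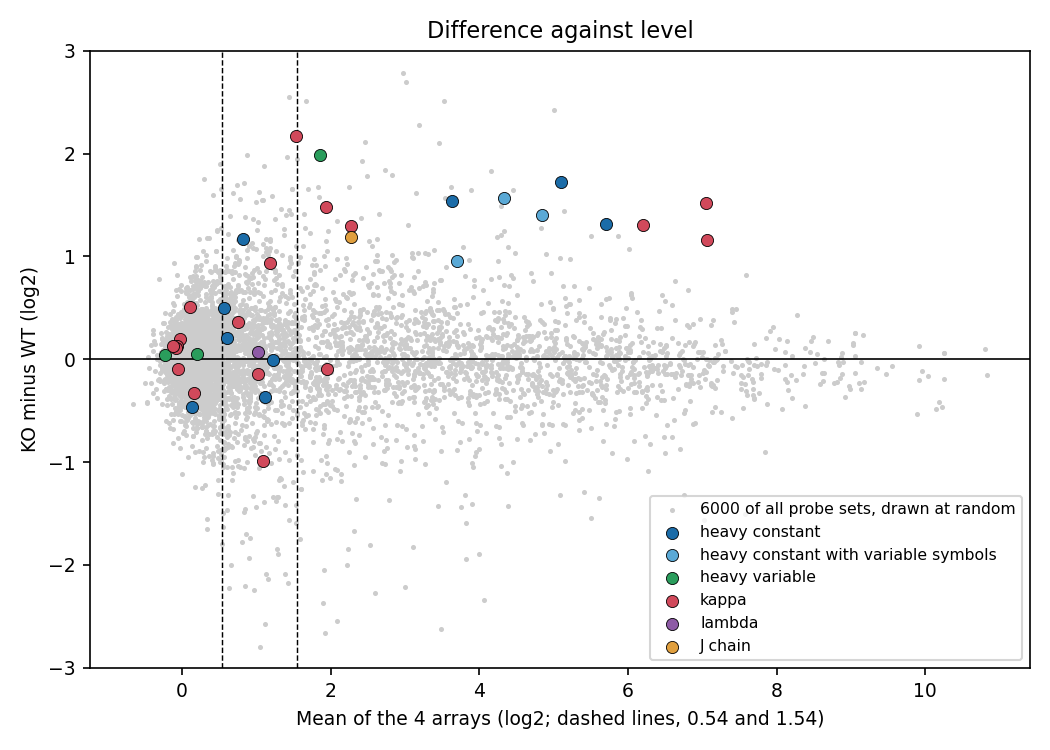
KO minus WT difference (vertical axis, log2, cut at 3 and -3) against the mean of the 4 arrays (horizontal axis, log2) for 6000 probe sets drawn from the table in grey and the 35 members in colour by class. To the right of the second dashed line, at 1.54, 13 of 14 members lie well above 0, while the grey points centre near 0.

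By the median, the pools of one genotype were about as close over the 35 members as elsewhere. The median distance between the WT pools was 0.22 over the 35 members and 0.25 over all probe sets. That between the KO pools was 0.23 and 0.28. In the 14 members of at least 1.54 it was 0.28 in WT and 0.16 in KO, against 0.25 and 0.28 over all probe sets at that level. Single members were wider, up to 1.23 between the WT pools of Igkv4-91. The 16 members at an unadjusted p under 0.05 were also counted with each pool left out. All 16 stayed at that p without WT pool 1, 14 without WT pool 2 and 13 without KO pool 2. Without KO pool 1 there were 10, and Jchain, Igkv4-91, Igkv5-43 (17459421), Ighm 17284648 and the shared probe sets of Ighv1-54 and Ighv1-72 were no longer among them. The share of all probe sets at that p with a pool left out is not given here. The differences of the 16 lay between 0.73 and 2.78 in these fits and in those with other normalizations, filters and variance models. Their sign with a pool left out was fixed beforehand, since in each of the 16 both KO pools lay above both WT pools. Filters and variance models do not change the difference itself.

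Genes that mark B cells apart from immunoglobulins were split between the directions. Of 18 listed B cell genes 16 had a probe set with that single symbol, of which 9 were higher in KO and 7 lower. A mean under 0.54 was found for 9 of the 16, near the 49.9% of all probe sets under that mark. Among those were Ms4a1, which encodes CD20 (mean 0.06), the complement receptor Cr2 (0.03), the IgE receptor Fcer2a (0.06) and the B lineage factor Pax5 (0.34). By pool, the mean level of the list was 0.56 and 0.65 in WT and 0.78 and 0.71 in KO, with a median difference of 0.04. The members with the smallest p were the adaptor Blnk at 0.93 ± 0.24 (SE; limma, adjusted p = 0.658), the tetraspanin Cd37 at 0.67 ± 0.20 and the receptor Cd22 at 0.55 ± 0.19. Cd79a, which carries the signal of the B cell receptor and was chosen after its value was seen, was at 0.58 and 0.57 in WT and at 1.12 and 1.08 in KO. Its partner Cd79b differed by -0.16 ± 0.34. The receptor Fcmr and Pax5, also picked with their values in view, differed by -0.31 ± 0.23 and -0.19 ± 0.19, with both KO pools below both WT pools. At an unadjusted p under 0.05, 4 of the 16 were higher and 0 lower, against 3.71% and 2.75% of all probe sets. At the same p, 3 of 12 macrophage genes were higher and 1 lower, and 2 of 8 dendritic cell genes and 2 of 6 germinal centre genes were higher. So were 1 of 12 immunoglobulin receptor genes, 1 of 14 T and NK cell genes and 1 of 7 spleen, lymph node or pancreas markers. It was 0 of 8 for precursor B cell genes, 0 of 9 for B cell survival and homing factors and 0 of 9 for hepatocyte genes.

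Plasma cell genes gave a median difference of -0.11 over 13 measured of 14 listed, with 4 members above 0 and 9 below. None was at an unadjusted p under 0.05 in either direction by limma, 0 of 13, against 3.71% of all probe sets higher and 2.75% lower. The plasma cell markers Mzb1, a chaperone of IgM assembly, and Tnfrsf17, the survival receptor BCMA, had means of 0.25 and 0.24 and differed by 0.15 ± 0.24 and -0.32 ± 0.33. The factors Irf4 and Prdm1 were at means of 0.93 and 0.59, with differences of 0.11 ± 0.22 and -0.28 ± 0.25. The leading members by p were Slamf7 at 0.37 ± 0.20, Sdc1 at -0.39 ± 0.22 and Fkbp11 at -0.60 ± 0.39. Sdc1, Fkbp11 and Xbp1 are expressed by hepatocytes too, so the list median and the split of directions are not those of plasma cells. The same holds for the list mean, 2.11 and 2.17 in WT and 2.07 and 2.03 in KO. Of the 13 genes 4 were dim, Mzb1 and Tnfrsf17 among them. In bulk RNA more cells of a type and more RNA per cell cannot be told apart, and the part of cell number in the immunoglobulin differences was not tested.

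Genes of precursor B cells and the surrogate light chain were dim in 6 of 8 measured cases, with a median of 0.01. Their leading members were Cd93 at 0.51 ± 0.20 (SE), Rag2, a recombinase subunit, at -0.22 ± 0.19 and Il7r, which was at 0.53 in KO pool 1 and 2.26 in KO pool 2. Germinal centre and class switching genes had a median of 0.23 over 6. Mybl1 was at 0.94 ± 0.24, Apobec1 at 0.65 ± 0.20 and S1pr2 at 0.34 ± 0.31. Among factors that sustain or attract B cells the median was -0.28 over 9, led by Il5 at -0.48 ± 0.19, the follicular chemokine Cxcl13 at -0.43 ± 0.19 and Ccl20 at -0.38 ± 0.21. Of these 9 genes 5 were dim, Il5 (mean 0.26) and Ccl20 (mean 0.28) among them. BAFF (Tnfsf13b), a B cell survival factor picked with its value in view, stood at a difference of -0.02. None of these genes passed the adjusted threshold by limma.

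Receptors and carriers of immunoglobulin gave a median of -0.10 over 12. Pigr, the receptor that carries polymeric antibody across epithelia, was at 8.81 and 8.83 in WT and at 8.71 and 8.79 in KO, a difference of -0.07 ± 0.19 (SE). Fcgrt, the neonatal Fc receptor that protects IgG from breakdown, differed by -0.12 ± 0.20, and Fcgr2b, the inhibitory IgG receptor, by 0.07 ± 0.19. These 3 were chosen after their values were seen. The leading members by p were Fcer1g, the signalling chain shared by activating Fc receptors, at 0.63 ± 0.19 (limma, adjusted p = 0.721), Fcgr1 at 0.71 ± 0.37 and Asgr1 at -0.33 ± 0.22.

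Genes of other cell types also differed in these pools, none past the adjusted threshold by limma. The macrophage list had a median of 0.30 over 12, led by Marco at -2.37 ± 0.35 (SE; limma, adjusted p = 0.443), Trem2 at 1.30 ± 0.30 and Cx3cr1 at 1.59 ± 0.40. Its mean level was 3.89 and 4.11 in WT and 4.23 and 4.27 in KO. The dendritic cell list had a median of 0.30 over 8, with H2-Ab1 at 0.93 ± 0.19, Itgax at 0.99 ± 0.30 and the dim Flt3 at -0.32 ± 0.19. T and NK cell genes had one of -0.02 over 14, with Cd3g at 1.07 ± 0.37, Cd4 at -0.40 ± 0.21 and the dim Cd2 at 0.48 ± 0.26. Hepatocyte genes had one of -0.09 over 9, with Tat at -0.43 ± 0.20, Hnf4a at -0.28 ± 0.19 and Ttr at 0.17 ± 0.20. Of 7 measured markers of spleen, lymph node or pancreas, 5 were dim. The list mean was 0.27 and 0.29 in WT and 0.80 and 0.35 in KO, and its leading members were Glycam1, a lymph node endothelial glycoprotein, at 0.85 ± 0.23, Nkx2-5 at 0.73 ± 0.31 and the pancreatic enzyme Prss2 at 0.55 ± 0.44. Prss2 was at 1.04 in KO pool 1 and -0.18 in KO pool 2. What part such tissue or these cell types have in the immunoglobulin values was not tested.

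**Figure D4:**
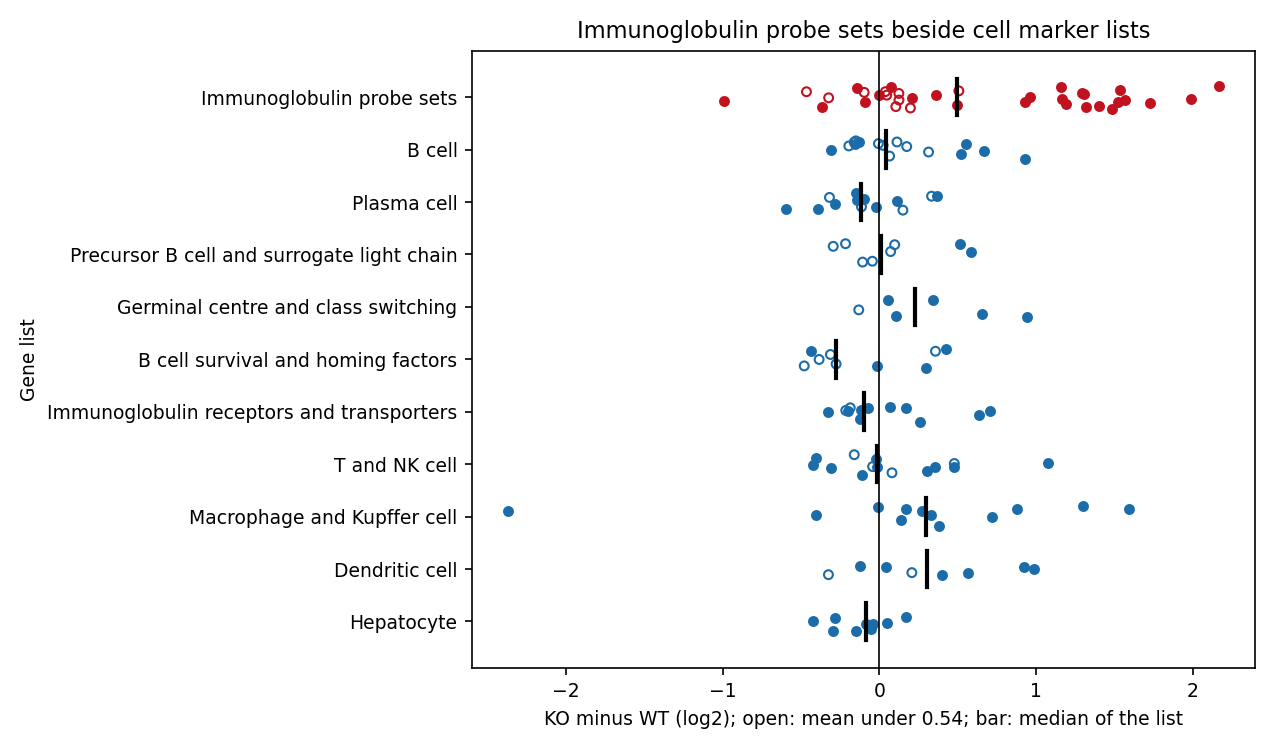
KO minus WT difference (horizontal axis, log2) of the 35 immunoglobulin probe sets in red and of the genes of 10 lists in blue, with open points for a mean under 0.54 and a bar at each median. The immunoglobulin median lies at 0.50, that of the B cell list at 0.04 and that of the plasma cell list at -0.11.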

How the data were processed

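Liver RNA pools (400 ng per array, per the labels' protocols) were hybridised to 4 arrays. The deposited values are log2 expression values; oligo, RMA and limma are named, per the submitters' processing notes, while the sources used here give no versions, build or annotation. Gene symbols came from the platform annotation: 23521 had 1 symbol, 1814 several and 16010 none. All 25 Entrez identifiers of the members were found in the RefSeq gene table. For context genes, the single-symbol probe set with the highest mean was used.

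KO was compared with WT over all 41345 probe sets by limma 3.58.1 in R 4.3.3 (lmFit, eBayes, 2 residual and 2.66 prior degrees of freedom, no covariate; statmod 1.5.0 for the robust option), with Benjamini-Hochberg adjustment at 0.05. The procedure was tested on simulated data. A two-sided exact permutation of 2 pools against 2 cannot go below 0.333. No batch information was used here.

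The members and lists were chosen with earlier results of these data known. Named are all constant region and Jchain probe sets, the brightest variable ones (6 heavy, 6 kappa, 3 lambda, or as many as exist), the 6 largest and 6 smallest differences among variable probe sets with a mean of at least 0.54, and the 3 members of each context list with the smallest p. The other members are given by range. Further context genes, and the E-box and purine-rich motifs, were chosen with results in view. A fold is given where both genotype means were at least 1.54. Array number limits the precision of every value. The alternatives were other normalizations, filters, variance models, a pool number block and each pool left out.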

Additional observations from a re-analysis of the deposited data

How the results depend on the processing

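No member passed the adjusted threshold by limma under any alternative, and neither did any other probe set; the smallest adjusted p of a member lay between 0.193 (variance that follows intensity) and 0.82 (without KO pool 1). The combination of a filter at 0.54 with a variance that follows intensity was added after seeing the data and gave 0.206. The number of members higher at an unadjusted p under 0.05 was 16 with other normalizations and variance models and 10 to 16 with 1 pool left out, and 0 to 1 were lower. It was 13 where only probe sets of at least 1.54 were fitted. With 1 pool left out, the lone pool of a genotype is assumed to vary like the others. The share of all probe sets at that p is not given for these alternatives. With the pool number as a replicate block there were 16, the deviations of same-numbered pools correlated at -0.03 over all probe sets, and the numbers were not taken as pairs. Members with both KO pools below WT numbered 5 to 8 with 1 pool left out, when fewer values need to separate, and 1 among those of at least 0.54. The median over all members was 0.20 with single-symbol members only, 1.17 with those of at least 0.54, and 0.38 to 0.61 with 1 pool left out. For kappa it was 0.16, 1.16 and 0.24 to 0.37. With members of at least 0.54 only, the heavy constant median was 0.83 and the heavy variable one, a single probe set, 1.99. Over all probe sets of at least 0.54 the median was 0.01. The filter uses a mean that includes the KO pools, and 4 of the members that passed it had a WT mean under 0.54. The medians with this filter are therefore a description only. The sign turned for 4 named probe sets with differences near 0. With 1 pool left out, Ighv1-47 lay between -0.155 (KO pool 2 omitted) and 0.249, also at -0.07 with WT pool 1 omitted. Ighv1-54 lay between -0.035 (KO pool 1 omitted) and 0.112, and at -0.0083 with arrays centred on their medians. Ighg3 (17284614) lay between -0.56 and 0.56 (KO pool 1 omitted), also at 0.06 with WT pool 2 omitted, and Igkv4-72 between -0.21 and 0.030 (KO pool 1 omitted). For these, and for the counts without KO pool 1, the cause was not tested. Dim members limit what can be read, since 10 of 35 lie under the table median.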
